A study of Mus musculus with 9 samples.

Results

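The Hox genes of the mouse were examined for DNA methylation in splenic B cells carrying a point mutation of Kmt2d. The set holds 38 genes in 4 clusters, of 20661 protein-coding autosomal genes in the RefSeq table. It was defined by name and position, with no measured value in the rule, though earlier results of these data were known. Of the genes, 10 are in Hoxa on chromosome 6, 10 in Hoxb on chromosome 11, 9 in Hoxc on chromosome 15 and 9 in Hoxd on chromosome 2. Each gene was taken from end to end with 2 kb on either side, and the DNA between neighbours was kept. The mice carried the Ile5482Asn variant of Kmt2d on both copies (homozygous, HOM), on 1 copy (heterozygous, HET) or on none (wild type, WT). The variant is an A>T change at position 98835228 of chromosome 15. ENU, the name of a chemical mutagen, stands in the column names of HET and HOM but not of WT. B cells were purified by depleting the other spleen cells on magnetic columns, and methylation was read by whole-genome bisulfite sequencing, in which unmethylated cytosines are converted and methylated ones are not. For each genotype the deposited table holds a single set of counts, here called a library, and differences between genotypes therefore have no replicate check. The sources used here do not say whether a set comes from 1 mouse sample or from several. The labels list 2 B cell samples for each genotype, and blood was not analysed here.

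Hox genes encode homeodomain transcription factors that give body segments their identity. Within a cluster the genes lie in the order in which they are expressed from head to tail, and genes with the same number in different clusters are paralogues. Outside the tissues where they act, the clusters are classically held silent by Polycomb proteins and are kept active by the trithorax family, to which the histone H3K4 methyltransferases belong. KMT2D is a member of that family and places H3K4 monomethylation, mostly at enhancers. In blood, several Hoxa and Hoxb genes, such as Hoxa9 and Hoxb4, are known for their activity in stem and progenitor cells.

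The table covered 21875444 CpGs at a mean of 9.18 (WT), 12.9 (HET) and 9.85 (HOM) reads, and the clusters at 10.5, 14.4 and 12.0. CpGs far from islands ("open sea", over 4 kb from a CpG island) were methylated at 81.6% (WT), 80.9% (HET) and 78.1% (HOM), so HOM was lower across the genome, and mitochondrial DNA read 0.492 to 0.607%. The start windows of 7 B cell marker genes had a median level of 38.9% (WT), 26.6% (HET) and 32.9% (HOM), over a range of 9.42 to 64.9% in WT. Of these windows, 2 were called lower in HET (Cd79a and Cd79b) and 1 in HOM (Blk) than in WT, where 1.18 and 3.16% of all start windows were (calls are defined below). The 7 T cell marker windows had medians of 53.2, 72.0 and 54.6%, with 3 called higher in HET than in WT (1.27% of all windows), among them Cd3e at 50.3, 77.2 and 55.5%. In HOM, 2 of the 7 were called higher than in WT (1.03%) and 1 lower, and 4 were called lower than in HET (2.55%). The 5 myeloid windows had medians of 64.1, 62.0 and 70.6%, with 2 called higher and 1 lower in HET than in WT and 1 called higher in HOM. The 3 NK cell windows had 68.5, 74.2 and 79.4% and no call. The 3 erythroid windows had 62.9, 72.5 and 65.9%, with 1 called lower in HOM than in HET. Methylation of a start window is not a cell count, and the part of other cells in the results below was not tested.

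The DNA upstream of the genes shows the spread of the set. RefSeq gives a promoter for 22 of the 38 members. Shown here are the 250 bases before the start of 4 genes (GRCm38.p6, 5′ to 3′ on the strand of the gene), with every CG, the only place where these data read methylation, in capitals. Hoxa5 was chosen as the most methylated start of the set in WT, Hoxa13 and Hoxd1 as nearly unmethylated ones, and Hoxb1 as a start with few CG. They lie at chr6:52204588-52204837 on the minus strand (Hoxa5), chr6:52260881-52261130 on the minus strand (Hoxa13), chr2:74762730-74762979 on the plus strand (Hoxd1) and chr11:96365508-96365757 on the plus strand (Hoxb1).
Hoxa5: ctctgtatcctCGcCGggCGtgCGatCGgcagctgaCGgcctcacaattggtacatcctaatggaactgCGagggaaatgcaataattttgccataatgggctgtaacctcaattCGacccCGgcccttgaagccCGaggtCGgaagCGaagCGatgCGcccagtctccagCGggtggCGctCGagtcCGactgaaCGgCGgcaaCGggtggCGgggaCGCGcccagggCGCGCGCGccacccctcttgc
Hoxa13: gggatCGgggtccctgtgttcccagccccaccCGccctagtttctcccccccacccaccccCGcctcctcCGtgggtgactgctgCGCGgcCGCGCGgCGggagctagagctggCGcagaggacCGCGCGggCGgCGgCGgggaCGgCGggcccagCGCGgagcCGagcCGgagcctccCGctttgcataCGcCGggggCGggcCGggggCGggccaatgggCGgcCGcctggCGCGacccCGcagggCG
Hoxd1: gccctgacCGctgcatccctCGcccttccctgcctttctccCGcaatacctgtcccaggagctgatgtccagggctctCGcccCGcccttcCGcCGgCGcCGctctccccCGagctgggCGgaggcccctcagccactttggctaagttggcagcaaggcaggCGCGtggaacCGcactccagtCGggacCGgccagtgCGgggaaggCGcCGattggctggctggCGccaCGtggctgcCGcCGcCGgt
Hoxb1: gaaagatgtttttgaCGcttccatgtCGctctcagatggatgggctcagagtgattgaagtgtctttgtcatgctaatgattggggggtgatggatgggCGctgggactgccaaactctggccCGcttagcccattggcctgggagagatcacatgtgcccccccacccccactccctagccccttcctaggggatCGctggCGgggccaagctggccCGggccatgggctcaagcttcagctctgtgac
Hoxa5, which is needed for lung and rib cage patterning, has 28 CG here, and its level was 80.0% (WT), 31.9% (HET) and 81.2% (HOM). HET stood apart from the other libraries, but over only 80, 91 and 80 CpG reads. A read at such a CpG covers 14.9 CpGs on average, counting CpGs outside the 250 bases, so few molecules lie behind each value. Hoxa13, which patterns digits and the urogenital tract, has 35 CG, and its level was 0% (WT), 0.917% (HET) and 0% (HOM) over 50, 109 and 77 CpG reads. A read at such a CpG covers 22.9 CpGs on average, again counting CpGs outside the 250 bases. Divided by that number, the reads come to 2.19 in WT and 3.37 in HOM, and 0 methylated reads among so few set no useful limit. Hoxd1 has 24 CG, and its level was 2.73% (WT), 2.64% (HET) and 0.687% (HOM). Hoxb1, which specifies the part of the hindbrain that forms the facial nerve, has 7 CG, and its level was 48.9% (WT), 45.5% (HET) and 34.1% (HOM). These 4 genes were picked for their levels or their CG number, so they cannot show how CG number relates to level. The 24 promoters of members (300 bases each) held a median of 14.5 CG, against 14 over all 20084 protein-coding promoters of the RefSeq table.

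Much of the Hox DNA was lowly methylated in every library. Over the 12128 CpGs of the clusters the level was 24.5% (WT), 24.8% (HET) and 23.1% (HOM), where all autosomal CpGs gave 76.0, 75.5 and 72.3%. The clusters are rich in CpG islands, which held 36.7% of their CpGs and 6.5% of all autosomal CpGs. Outside islands the clusters had 31.3% (WT), 31.2% (HET) and 29.6% (HOM), and the autosomes 79.5, 78.9 and 76.0%. Inside islands the clusters had 7.38, 7.72 and 7.59%, and all autosomal islands 5.44, 5.41 and 4.91%. Of the 478 tiles of 1 kb that could be compared, 220 (46.0%) had a mean level of the libraries below 20%, against 2.25% of 1584151 tiles genome-wide. Of the gene spans, 23 of 38 (60.5%) lay below 20%, against 2.90% of 20090. The islands themselves were not lower than elsewhere: 66 of 78 (84.6%) lay below 20%, against 83.8% of 16376.

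**Figure D1:**
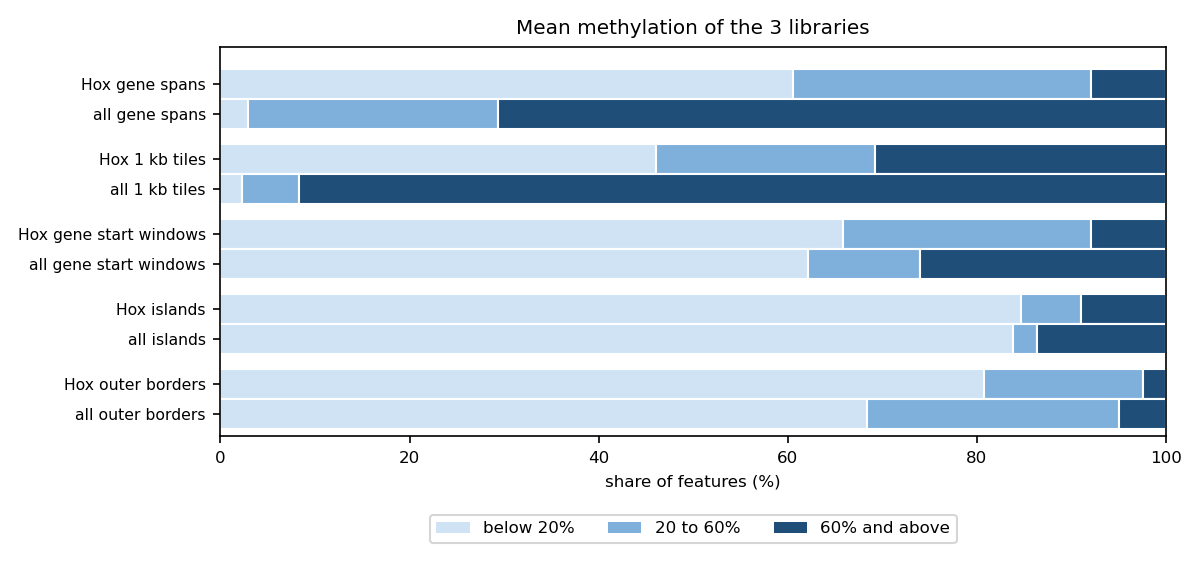
Share of features (horizontal axis, %) whose mean methylation over the 3 libraries was below 20%, 20 to 60%, or 60% and above, for Hox features and for all autosomal features of the same kind. Below 20% lay 46.0% of the Hox tiles and 2.25% of all tiles, while the islands were close at 84.6 and 83.8%.

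The clusters differed from each other more than the libraries did. Hoxa (chr6:52160417-52262880) stood at 30.7% (WT), 29.5% (HET) and 28.0% (HOM), and Hoxb (chr11:96192316-96370254) at 33.1, 34.7 and 31.2%. Hoxc (chr15:102919131-103038856) stood at 13.3, 13.5 and 13.1%, and Hoxd (chr2:74666225-74767142) at 17, 16.9 and 16.2%. In each library Hoxa and Hoxb were thus the more methylated clusters and Hoxc the least. In Hoxc 80 of 111 tiles lay below 20% and 3 at 60% or above, whereas in Hoxb 49 of 170 lay below 20% and 84 at 60% or above. Hoxa had 37 of 99 tiles below 20% and 41 at 60% or above, and Hoxd 54 and 19 of 98. Islands followed the same split: all 12 islands at or above 20% were in Hoxa or Hoxb, 6 in each, and the highest WT level was 12.1% among the 16 islands of Hoxc and 12.4% among the 17 of Hoxd.

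**Figure D2:**
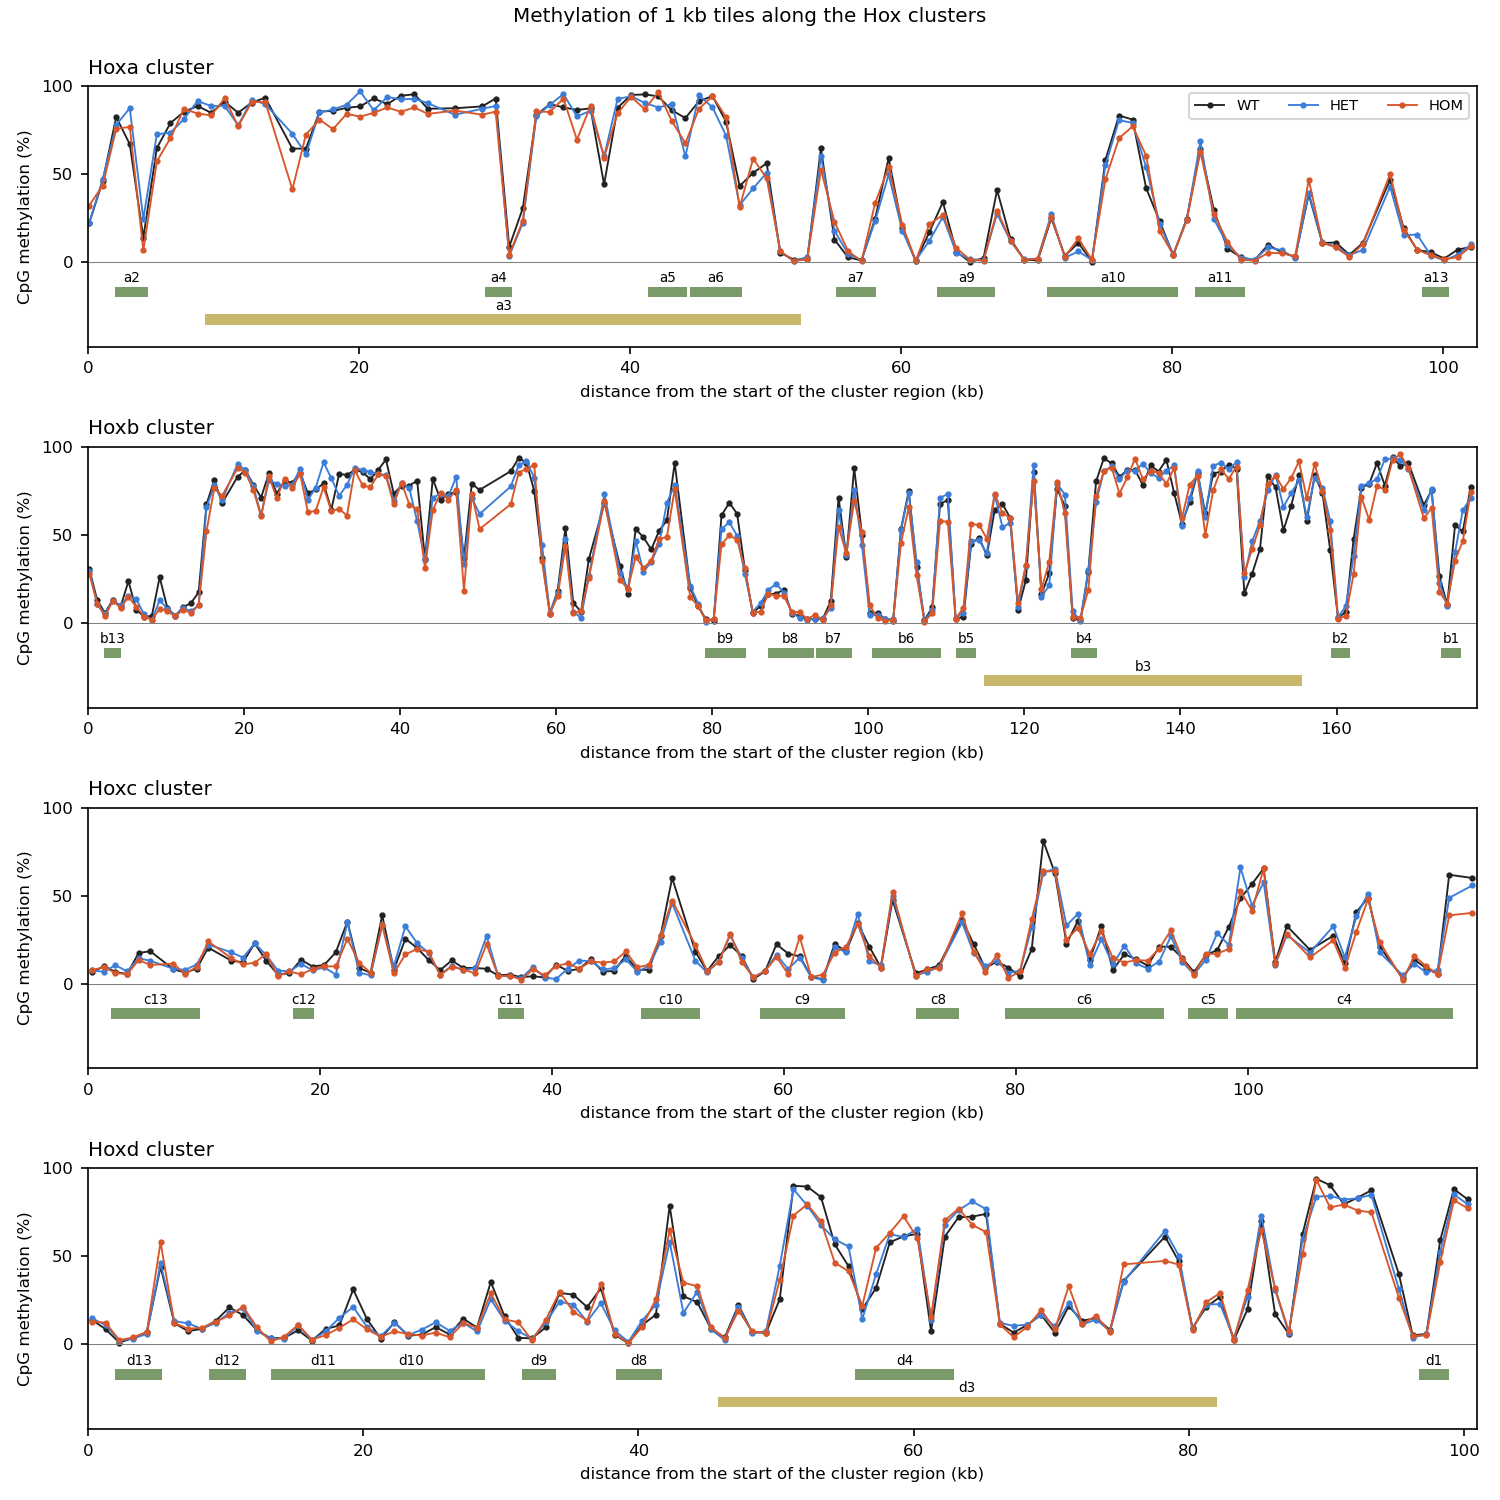
CpG methylation (vertical axis, %) of 1 kb tiles against distance from the start of each cluster region (horizontal axis, kb), with 1 line per library. Boxes below the axis are the member genes, with the long Hoxa3, Hoxb3 and Hoxd3 spans on a lower row; the lines run close together, Hoxc stays mostly below 20%, and Hoxa drops after Hoxa6.

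Hoxa fell into a methylated and a lowly methylated part. At the anterior side, the span of Hoxa5 stood at 90.2% (WT), 86.3% (HET) and 84.6% (HOM), the highest of all members. Hoxa6 stood at 71.4, 62.4 and 61.9%. Hoxa3, needed for thymus and parathyroid formation, stood at 63.3, 61.4 and 58.1%, but the RefSeq span of Hoxa3 is long and takes in Hoxa4, Hoxa5 and Hoxa6. Hoxa4 stood at 57.7, 50.2 and 42.7%, and Hoxa2, a hindbrain and neural crest gene, at 45.9, 52.1 and 39.2%. Past Hoxa6 the level dropped in every library. Hoxa7 stood at 13.6% (WT), 16.1% (HET) and 18.4% (HOM). Hoxa9, a gene of blood stem and progenitor cells, stood at 7.27, 6.44 and 6.80%. Hoxa10 stood at 14.4, 15.6 and 13.1%, Hoxa11, which patterns kidney and forearm, at 11.3, 10.6 and 9.87%, and Hoxa13 at 8.32, 6.85 and 6.39%. Within the methylated part the CpG-richer end of Hoxa4 made a sharp dip. The 1 kb tile from 52190001 read 92.9, 88.7 and 85.5% in WT, HET and HOM, and the next, which holds 136 CpGs, read 8.75, 3.46 and 4.33%.

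Hoxb showed the same kind of alternation over a longer distance. Hoxb13, the gene nearest the tail end, stood at 11% (WT), 10.4% (HET) and 8.97% (HOM). The gap of 74719 bp between Hoxb13 and Hoxb9 stood at 40.8, 39.9 and 36.3%. Hoxb8 was the lowest span of the cluster at 7.08, 7.57 and 6.72%, Hoxb7 stood at 16.9, 14.5 and 13.9%, and Hoxb9 at 16.6, 16.2 and 13.1%. Towards the anterior side levels were higher: Hoxb5, linked to long-term blood stem cells, stood at 30.6, 35.2 and 31.0%, and Hoxb4 at 32.2, 37.8 and 29.1%. Hoxb3 was the most methylated span of the cluster at 50.6% (WT), 54.3% (HET) and 54.0% (HOM), and its RefSeq span takes in Hoxb4. Hoxb2 and Hoxb1, both hindbrain genes, stood at 19.96, 25.4 and 19.2% and at 33.6, 32.5 and 27.0%.

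In Hoxc and Hoxd low levels were the rule. All 9 Hoxc spans lay between 4.69 and 22.3% in WT, from Hoxc11 to Hoxc4. Hoxc11, a gene of the lumbosacral region, read 4.69% (WT), 5.63% (HET) and 4.98% (HOM), the lowest span in WT of the 38. Hoxc12 and Hoxc13, which is needed for hair and nails, followed at 9.15, 8.25 and 7.13% and at 9.43, 10.1 and 8.62%. The highest were Hoxc4 at 22.3, 23.9 and 20.2%, Hoxc5 at 19.4, 18.9 and 19.3% and Hoxc6 at 17.7, 18.7 and 20.6%. In Hoxd the spans from Hoxd13, a digit gene, to Hoxd8 lay between 6.40 and 12.0% in WT. Hoxd11 stood at 6.40, 5.97 and 5.50%, Hoxd13 at 7.32, 8.13 and 7.64% and Hoxd10 at 8.99, 9.09 and 6.94%. Hoxd4 was the exception at 46.5% (WT), 49.3% (HET) and 51.4% (HOM), and it lies inside the long span of Hoxd3, which stood at 21.8, 22.5 and 22.5%. Hoxd1 stood at 23.8, 20.1 and 18.9%. Grouped by number across clusters, the span medians in WT were 33.6% for the 7 anterior genes (groups 1 to 3), 21.4% for the 15 central ones (4 to 8) and 9.92% for the 16 posterior ones (9 to 13). The order was the same in HET (32.5, 23.9 and 10.3%) and in HOM (27.0, 20.2 and 8.79%). Spans of neighbours overlap, so these medians are a description.

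Single regions were then compared between libraries. A region was called when its pooled CpG reads differed by at least 10 percentage points with a Benjamini-Hochberg adjusted p below 0.05 in a two-sided Fisher's exact test, adjusted over all autosomal regions of its kind. That test compares 2 libraries, not genotypes, and it treats the CpGs of a read as independent. Intervals given below as read-based were therefore widened. Counts were divided by the mean number of CpGs on a read of 150 bases that covers a CpG of the region. That number also counts CpGs just outside the region. In short regions it overstates how many CpGs of the region share a read, and the intervals come out wider. Read-based intervals are 95% Newcombe intervals and cover counting error only. HOM minus WT and HET minus WT share the WT library, and their values stand side by side for that reason. A region picked on a comparison is thus no independent check of another comparison that shares a library.

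At the gene starts, 6 windows were called lower in HOM than in WT and none higher, all in Hoxa and Hoxb. Each window runs from 1000 bases before to 500 after the RefSeq start, or covers the CpG-richer end of the gene where RefSeq gives no start. Over all 19047 such windows 3.16% were called lower and 1.03% higher. Calls depend on the level: at mean levels of 20 to 40 and 60 to 80%, 10.1 and 8.14% of all windows were called lower. In the same classes 5.61 and 1.94% were called higher. Of the Hox windows there, 4 of 9 and 2 of 3 were called lower. Hoxa2 (chr6:52164331-52165831) stood at 31.2% (WT), 40.6% (HET) and 18.8% (HOM), so over the window HET was the highest and HOM the lowest. Its 300-base promoter (250 before to 50 after the start) had another order, at 8.11, 37.5 and 20.5% over 37, 80 and 73 CpG reads, with WT the lowest. Hoxa5 (chr6:52204087-52205587) stood at 86.3, 72.9 and 70.4%, with both mutant libraries below WT. Hoxa10, active in the uterus and in blood progenitors, stood at 30.7, 29.5 and 18.3%. RefSeq lists 2 starts for Hoxa10, and the window is the one with more CpGs, at 52234939. The 300-base promoter at that start was low in every library, at 6.43% (WT), 8.03% (HET) and 4.84% (HOM). HOM minus WT was -1.59 points there, so it did not show the difference of the window. The promoter at the other start (chr6:52240805-52241104) stood at 7.94, 16.7 and 29.0% over 63, 126 and 100 CpG reads, with HOM the highest. In the Hoxb cluster, Hoxb1 stood at 36.0, 34.0 and 25.6%, and Hoxb2 at 38.5, 35.6 and 25.6%. Hoxb6 stood at 69.2, 72.4 and 57.6%. In these windows of Hoxa10, Hoxb1, Hoxb2 and Hoxb6 HET thus lay near WT, and HOM alone was low. Adjusted p-values of Fisher's exact test ran from 1.18e-05 (Hoxa5) to 0.00329 (Hoxb6). The read-based intervals of all 6 held 0, for example -34.5 to 5.09 points for Hoxa5 and -23.2 to 2.54 for Hoxb1. With divided counts no Hox start was called in any comparison, and of all windows 0.0158% were in HOM against WT, 0.0158% in HET against WT and 0.0105% in HOM against HET. Hoxb1 and Hoxb6 were no longer called once HOM was scaled to the open sea level of WT, and with that scaling 4 windows were called lower and 1 higher (1.82 and 1.86% of all).

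HET was called lower than WT at 2 starts, Hoxa5 and Hoxa6, and higher at none, where 1.18% of all windows were called lower and 1.27% higher. In their level classes, 60 to 80% (Hoxa5) and 20 to 40% (Hoxa6), 2.73 and 4.99% of all windows were called lower. In the same classes 2.28 and 6.3% were called higher. The read-based intervals held 0 at both, with -31.2 to 7.03 points at Hoxa5 and -27.1 to 4.23 at Hoxa6. Hoxa6 stood at 43.3% (WT), 31.8% (HET) and 35.9% (HOM) (HET minus WT, adjusted p = 0.000608, Fisher's exact test). HOM was called lower than HET at Hoxa2, Hoxa10 and Hoxb6 (2.55% of all windows lower, 0.683% higher). At 20 to 40%, the class of Hoxa2 and Hoxa10, 7.69% of all windows were called lower and 2.63% higher. At 60 to 80%, the class of Hoxb6, 6.8 and 1.44% were. None of the 18 windows of Hoxc and Hoxd was called in any comparison. Most of them were low to begin with: 16 of the 18 had a mean level below 20%. Over the 38 windows the median was 9.59% (WT), 9.19% (HET) and 9.06% (HOM), and against WT, HOM was higher in 15 and lower in 23. The median difference was -0.63 points, and over all windows it was -0.61. In Hoxa 9 of 10 windows were lower in HOM than in WT, in Hoxb 7 of 10, in Hoxc 4 of 9 and in Hoxd 3 of 9. These counts include differences far below the counting error.

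**Figure D3:**
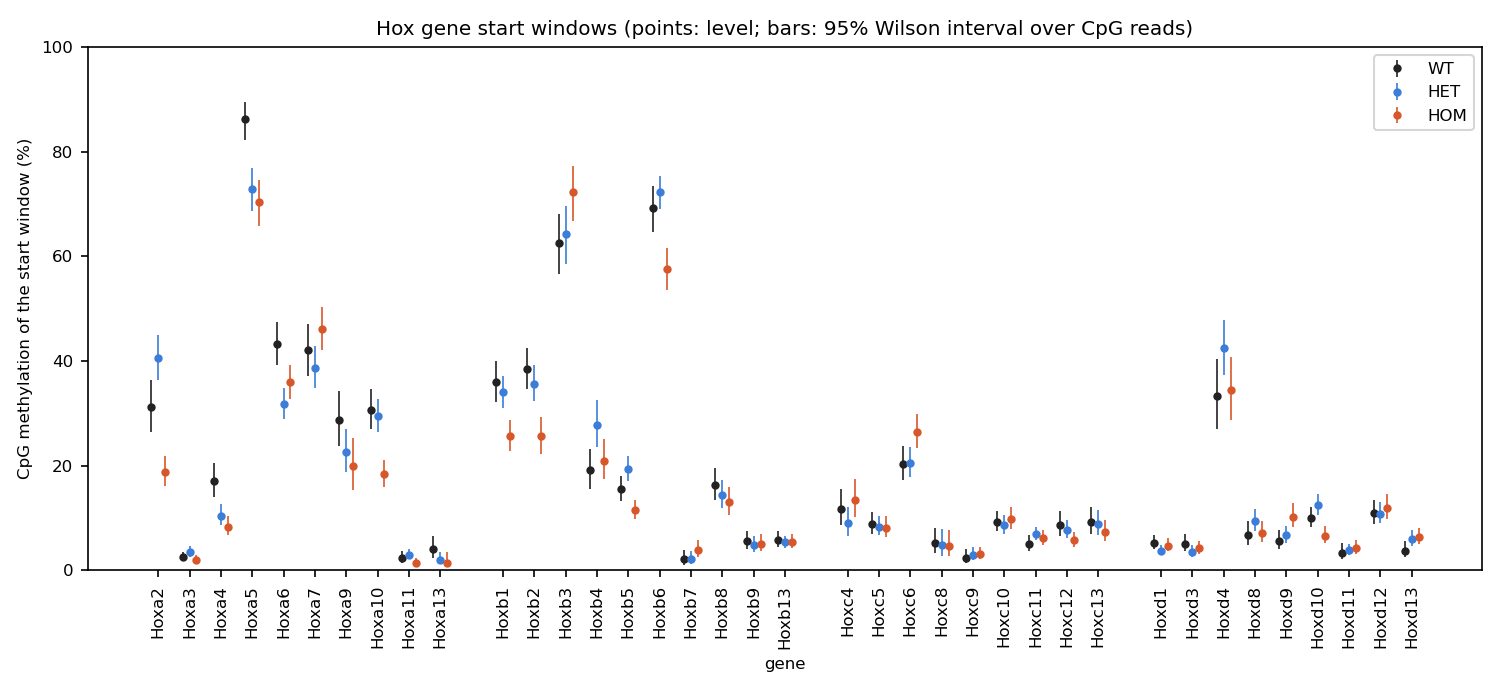
CpG methylation of the start window (vertical axis, %) of each of the 38 genes, ordered by cluster and number, with 1 point per library and 95% Wilson intervals over CpG reads. Hoxa5 stands highest at 86.3% in WT, HOM lies below WT at Hoxa2, Hoxa5, Hoxa10, Hoxb1, Hoxb2 and Hoxb6, and most Hoxc and Hoxd starts lie below 20%.

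CpG islands went the other way in part of the set. In HOM against WT 6 islands were called higher and 1 lower, of 78 compared, while 0.733% of 16376 islands were called higher and 1.37% lower. In HET against WT 2 were called higher and none lower (0.782% higher and 0.458% lower over all islands). Between HOM and HET 3 were called higher and 2 lower in HOM (0.519 and 1.26%). Calls depend on the level: at mean levels of 0 to 20%, 0.153% of all islands were called higher in HOM than in WT. At 20 to 40, 40 to 60 and 60 to 80%, 11.7, 15.9 and 15% of all were higher, and 18.2, 24.5 and 16.5% lower. Of the Hox islands, 1 of 66 was called higher at 0 to 20%, and 1 of 2, 2 of 3 and 2 of 3 in those classes. The lower Hox island was at 40 to 60%. Of the islands called higher in HOM than in WT, 4 lie within Hoxb3, a gene of hindbrain and pharynx development. The island at chr11:96345565-96346273 stood at 20.9% (WT), 46.9% (HET) and 68.8% (HOM). The one at chr11:96344090-96344429 stood at 59.6, 81.3 and 90.9%, and the one at chr11:96341938-96342320 at 34.0, 56.4 and 58.0%. In these 3 islands both mutant libraries lay above WT. The fourth, at chr11:96332716-96333268, stood at 56.8, 51.6 and 71.9%, with HOM alone high. Adjusted p-values of Fisher's exact test for HOM minus WT were 5.19e-10, 0.000123, 1.1e-07 and 0.0144 in that order.

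Outside Hoxb3, an island by Hoxb5 (chr11:96304906-96305224) stood at 25% (WT), 21.7% (HET) and 44.0% (HOM). An island by Hoxa7 (chr6:52215764-52216026) stood at 9.34, 13.5 and 19.6%. The island that was lower in HOM lies within the long Hoxa3 span (chr6:52175602-52176167), at 47.5, 61.4 and 12.9%. A second Hoxa3 island (chr6:52168678-52169061) was called lower in HOM than in HET only, at 88.4, 97.1 and 82.1%. No island of Hoxc or Hoxd was called. Few molecules stand behind these values. A read covers several CpGs of an island, and the divided counts came to 7.31 (WT), 8.14 (HET) and 5.91 (HOM) for the first Hoxb3 island, and to 66.1, 80.6 and 62.3 for the Hoxa7 island. With divided counts none of the 78 was called in HOM against WT (0.0244% of all islands), in HET against WT (0.00611%) or in HOM against HET (0.0122%). The read-based interval of HOM minus WT was -3.90 to 75.5 points for the first Hoxb3 island and -1.84 to 45.5 for the third. Pooled over all islands of Hoxb, the level was 7.83% (WT), 10.3% (HET) and 10.7% (HOM), and pooled over those of Hoxa it was 11.2, 9.69 and 9.42%. Island by island there was no common direction. HOM was above WT in 11 Hoxb islands and below it in 11, with a median difference of 0.03 points. In Hoxa it was above WT in 11 and below in 12, with a median difference of -0.05.

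**Figure D4:**
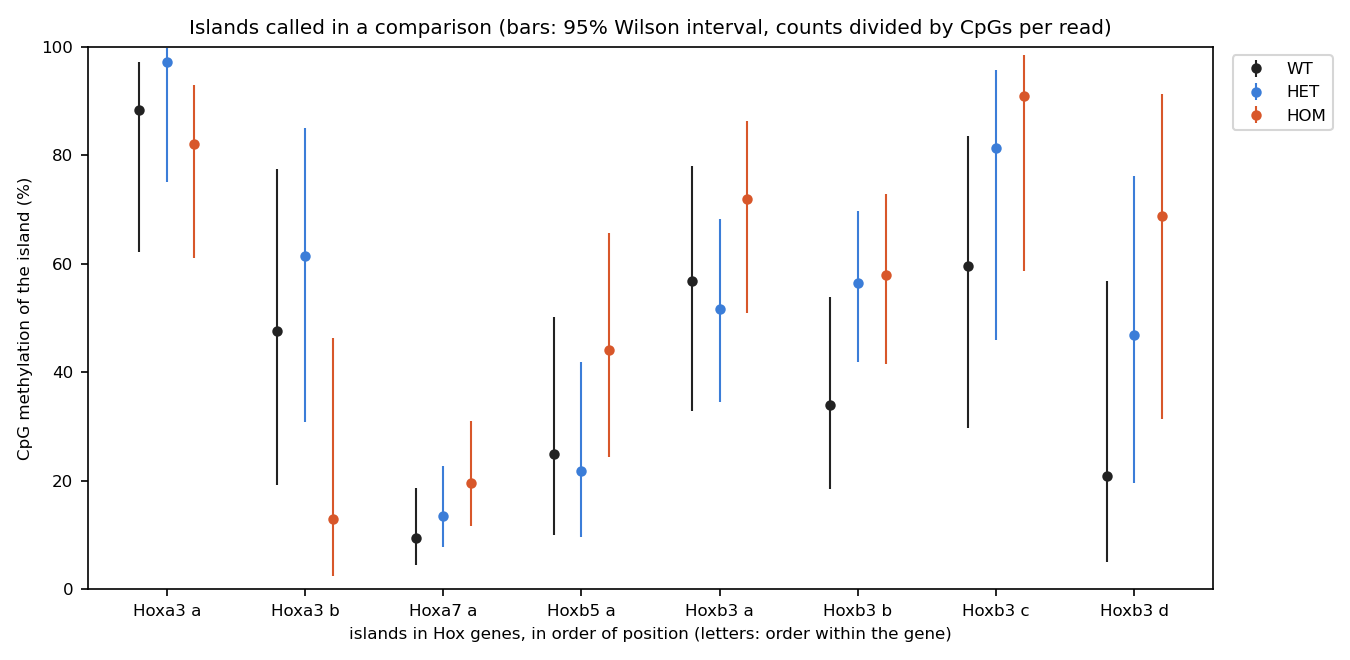
CpG methylation (vertical axis, %) of the 8 Hox islands called in at least 1 comparison, in order of position, with 1 point per library and 95% Wilson intervals on counts divided by the CpGs per read. HOM lies above WT in the Hoxb5, Hoxa7 and the 4 Hoxb3 islands, by 10.2 to 47.9 points, and the wide bars overlap in each of them.

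Tiles of 1 kb set these islands in their surroundings. HOM against WT gave 8 tiles called higher and 12 lower of 478, against 0.358 and 2.45% of all tiles. HET against WT gave 6 higher and 4 lower (0.430 and 0.718%), and HOM against HET 5 higher and 9 lower (0.423 and 2.28%). These shares depend on the level. At mean levels of 0 to 20, 20 to 40 and 40 to 60%, HOM against WT gave 0.455, 6.06 and 4.44% of Hox tiles called higher. Of all tiles there, 0.522, 2.99 and 2.09% were. Called lower were 0.455, 6.06 and 8.89% of Hox tiles, and 0.884, 3.93 and 3.56% of all. The direction depended on the scale. With levels scaled to the open sea of WT, HOM against WT gave 18 higher and 7 lower (1.19 and 0.960% of all tiles), and HOM against HET 11 higher and 6 lower (1.37 and 1.27%). HET against WT gave 6 higher and 3 lower with that scaling (0.605 and 0.646%). With divided counts no Hox tile was called, where 0.0131% of all tiles were in HOM against WT, 0.022% in HET against WT and 0.02% in HOM against HET.

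The tiles that differed most, counting those where each of the 2 libraries held 60 CpG reads or more, lay in a few places. Highest in HOM against WT were the tile from 96345001 in Hoxb3, at 52.5% (WT), 65.9% (HET) and 76.0% (HOM), and tiles in Hoxd4 (from 74723001, 32.1, 39.9 and 54.7%), Hoxa10 (from 52238001, 42.0, 53.8 and 60.5%) and Hoxc6 (from 103000001, 19.6, 32.1 and 36.6%). The fifth was the neighbour of the first, from 96346001, at 66.4, 73.7 and 82.3%. In all 5 HET lay between WT and HOM. The Hoxa10 tile and the second Hoxb3 tile were not called. Lowest in HOM were a Hoxa3 tile (from 52175001, 64.5, 72.9 and 41.3%), a Hoxc4 tile (from 103036001, 61.8, 48.7 and 38.8%), which was not called, and a Hoxb1 tile (from 96367001, 55.5, 40.1 and 35.5%). The other 2 lie between Hoxb13 and Hoxb9, from 96242001 (75.5, 61.8 and 53.3%) and from 96224001 (84.6, 72.2 and 64.7%, not called). HET lay below WT in each of these except the Hoxa3 tile. The tiles were picked for their WT and HOM values, so the place of HET beside them is partly set by that choice.

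In HET against WT the greatest differences upwards were at Hoxa2 (from 52163001), with 67.0% (WT), 87.4% (HET) and 76.8% (HOM), at Hoxd3 (from 74716001), with 25.7, 44.5 and 36.7%, and between Hoxc12 and Hoxc11 (from 102953001), with 8.45, 27.2 and 22.4%. Hoxb3 (from 96341001) stood at 27.9, 46.4 and 42.0%, and Hoxc4 (from 103018001) at 48.4, 66.0 and 52.6%. HET was the highest library in all 5. The greatest differences downwards were between Hoxb13 and Hoxb9 (from 96234001), with 80.7, 57.7 and 64.6%, and at Hoxa5 (from 52204001), with 81.8, 60.1 and 67.6%. Next came a second tile between Hoxb13 and Hoxb9 (from 96263001), with 48.6, 29.1 and 31.1%, then Hoxc6 (from 103001001), with 81.0, 63.0 and 63.7%, and Hoxd3 (from 74719001), with 83.6, 67.7 and 69.8%. HOM lay below WT in each of those as well. Of these 10 tiles, those from 102953001, 103018001, 103001001 and 74719001 were not called. HOM against HET gave its greatest difference downwards at the same Hoxa3 tile from 52175001 (by -31.6 points) and upwards beside Hoxa6 (from 52209001), at 50.7% (WT), 41.9% (HET) and 58.8% (HOM). HOM was also lower between Hoxb13 and Hoxb9 (from 96266001, 58.3, 68.2 and 48.9%), at Hoxa2 (from 52164001, 14.0, 24.5 and 6.72%), in Hoxd3 (from 74744001, 61.2, 64.5 and 47.4%) and between Hoxb6 and Hoxb5 (from 96302001, 69.9, 73.3 and 57.5%). HET lay above both other libraries in those 4. The other tiles higher in HOM were the Hoxd4 tiles from 74723001 and from 74725001 (61.4, 61.0 and 72.7%), a Hoxb3 tile (from 96315001, 28.2, 21.3 and 34.8%) and a Hoxc9 tile (from 102980001, 15.5, 14.9 and 26.4%), where HOM was the highest. Of these 10 tiles, those from 96266001, 74744001 and 74725001 were not called. All tiles of this paragraph were ranked on the values shown, so the order of the libraries in them is partly set by that choice.

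Neighbouring tiles that moved together were joined into stretches (at least 3 in a row, each differing by at least 5 points the same way), a rule set after the values were seen and given without a test. Stretches higher in HOM than in WT held 17 of the 478 Hox tiles (3.56%), against 0.579% of all tiles. Stretches lower in HOM held 42 (8.79%), against 13.1% of all. These shares were not matched for level. At 60% or above lay 30.8% of Hox tiles and 91.7% of all tiles. Of all tiles at 80 to 100%, 27.8% were higher in HOM than in WT, against 45.9% at 20 to 40%. What part of the contrast goes with level was not tested. The higher stretches lay at Hoxb3, Hoxb5 and Hoxd4. In the first Hoxb3 stretch (chr11:96340001-96343000) the level was 32.7% (WT), 48.3% (HET) and 47.5% (HOM), and both mutant libraries lay above WT. In the second (chr11:96344001-96350000) it was 66.9, 72.8 and 79.7%. The Hoxb5 stretch (chr11:96304001-96309000) stood at 32.1, 33.9 and 40.3%. By Hoxd4 (chr2:74723001-74726000) the level was 46.1, 51.4 and 62.3%, HOM being the highest. Since the tiles were chosen for their differences, no interval is given for a stretch.

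Of the 13 stretches lower in HOM than in WT, 9 lay in Hoxb, 3 in Hoxd and 1 in Hoxa. Beside Hoxb2 (chr11:96354001-96358000) the level was 62.7% (WT), 55.6% (HET) and 41.9% (HOM). At Hoxb1 itself (chr11:96363001-96366000) the level was 57.4, 51.7 and 40.8%. HOM was the lowest in all of these, with HET in between. Near Hoxb9 (chr11:96273001-96276000) it was 64.3, 53.5 and 47.2%, and within the gap between Hoxb13 and Hoxb9 (chr11:96262001-96265000) 44.8, 33.9 and 34.1%, where both mutant libraries lay below WT. In Hoxd, the lower stretches were in Hoxd3 (chr2:74717001-74721000) at 75.8, 70.3 and 63.2%, between Hoxd3 and Hoxd1 (chr2:74758001-74762000) at 56.4, 53.2 and 51.9%, and at Hoxd1 (chr2:74764001-74769000) at 76.7, 70.5 and 65.1%. At Hoxa2 (chr6:52164001-52167000) the level was 46.5% (WT), 51.1% (HET) and 30.7% (HOM). The mutant libraries thus lay on either side of WT there. Coverage was uneven as well: 628 CpG reads (WT), 872 (HET) and 1203 (HOM) fell in that stretch.

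The DNA between neighbouring genes was also taken gap by gap, without regard to tiles. Of 27 gaps with at least 3 CpGs, HOM was above WT in 14 and below it in 13. The read-based interval lay below 0 in 2 of them and above 0 in none. Both are in Hoxb: Hoxb2 to Hoxb1 stood at 71.4, 68.0 and 56.7% (read-based interval of HOM minus WT, -21.8 to -7.39 points), and Hoxb13 to Hoxb9, described above, had an interval of -7.04 to -2.00. HOM minus WT was -3.70 points over all autosomal CpGs and -3.48 over those outside islands. The Hoxb13 to Hoxb9 interval holds these values and the Hoxb2 to Hoxb1 interval does not. The other Hoxb gaps lay on either side of WT. HOM was above WT from Hoxb3 to Hoxb2 (66.5, 71.8 and 75.2%) and from Hoxb5 to Hoxb3 (34.3, 37.4 and 46.4%). It was below WT from Hoxb6 to Hoxb5 (47.5, 58.1 and 37.7%) and from Hoxb7 to Hoxb6 (44.8, 36.3 and 37.0%). From Hoxb9 to Hoxb8 HOM minus WT was -0.64 points, and from Hoxb8 to Hoxb7 it was 1.42. All these intervals held 0. These 27 intervals were not adjusted for their number, and gaps between other genes were not measured beside them.

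**Figure D5:**
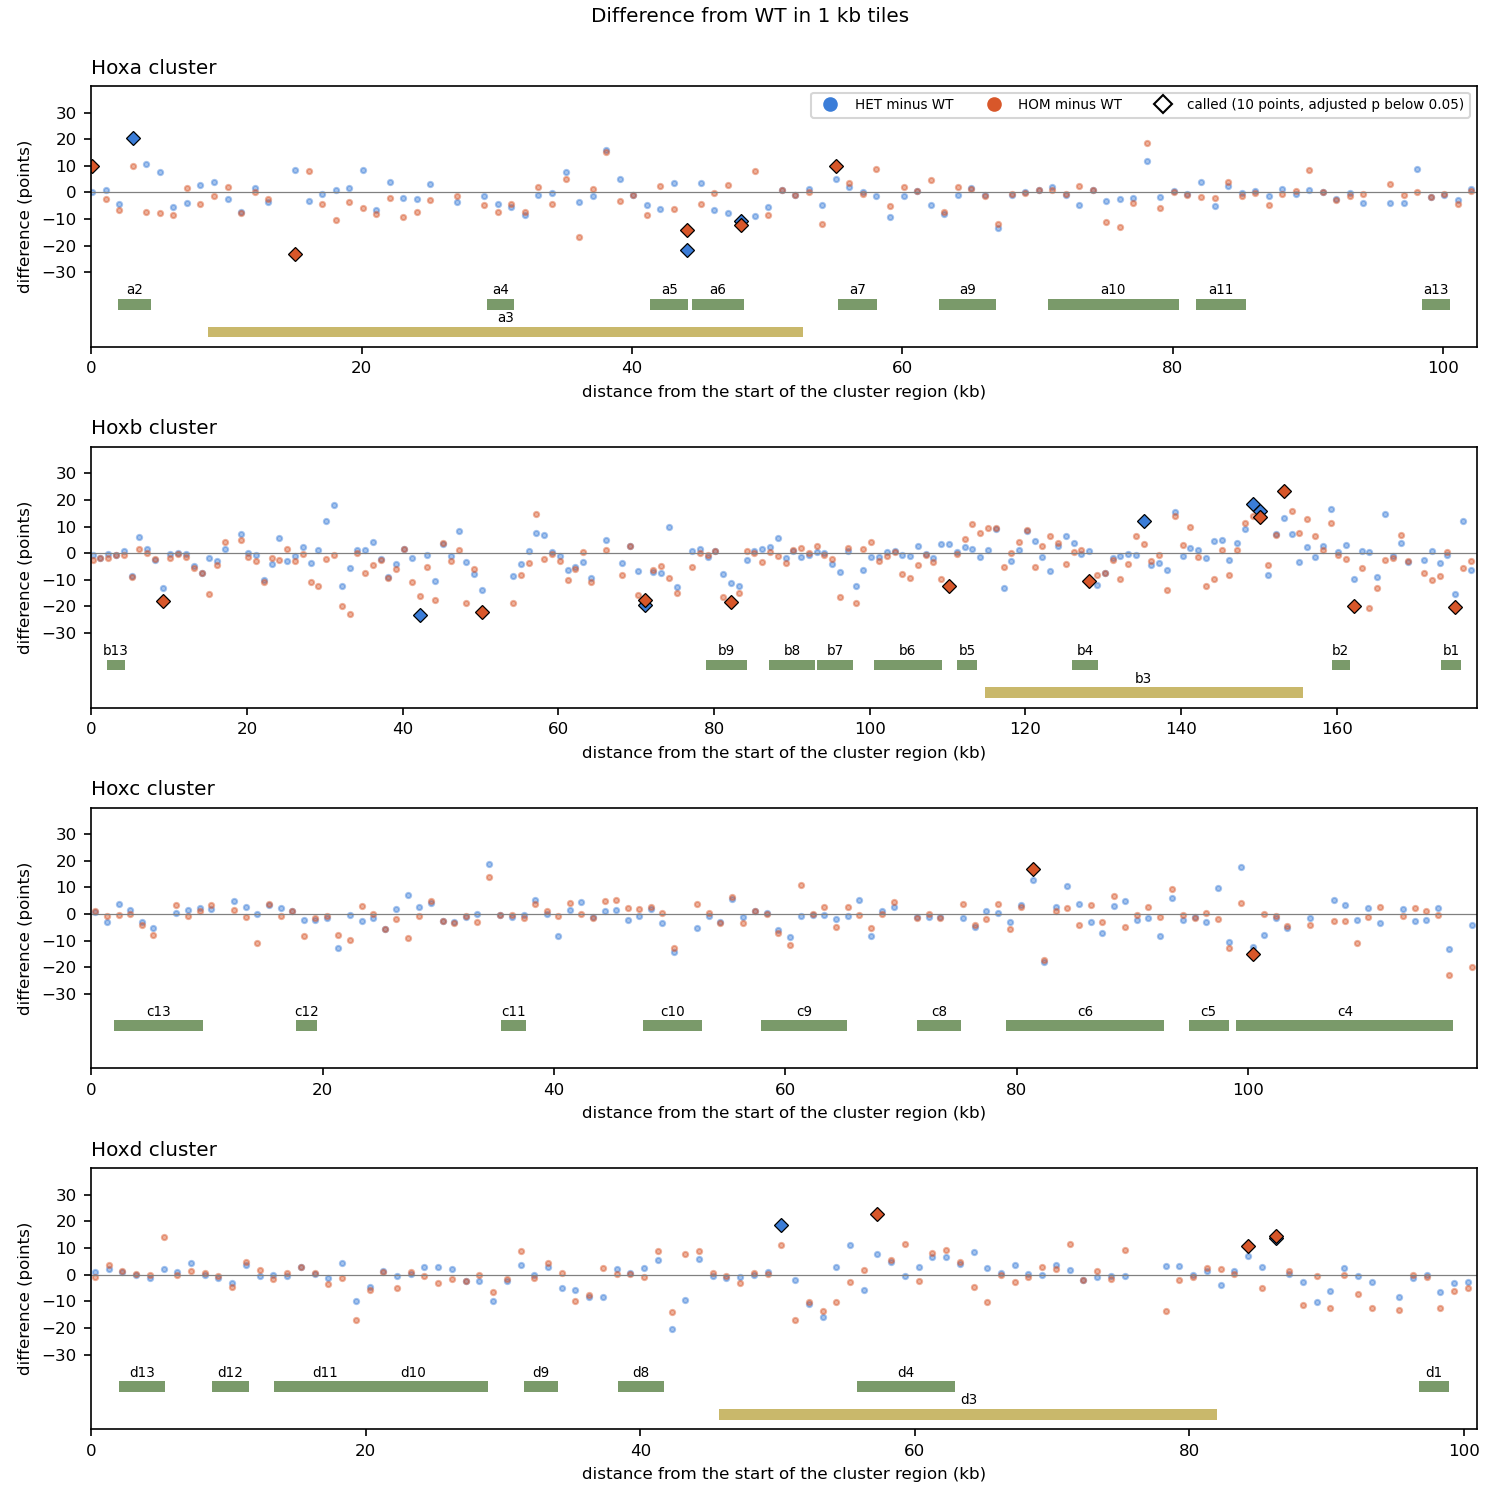
Difference from WT (vertical axis, percentage points) of each 1 kb tile against distance from the start of each cluster region (horizontal axis, kb), for HET and HOM, with called tiles as outlined diamonds and member genes as boxes. Called tiles are few, higher ones lie mostly within Hoxb3 and between the start of the Hoxd3 span and Hoxd1, and Hoxc holds 2.

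The outer borders of islands, the 500 bases beyond the edge of an island with an unmethylated core (below 20%), were measured because the title of the series concerns them. Hox borders were low, with a median of 8.16% (WT), 8.17% (HET) and 9.03% (HOM) over 125 borders, and 101 (80.8%) below 20%, against 68.4% of all 25844. In HOM 68 were higher and 57 lower than in WT, with a median difference of 0.26 points. Over all borders 38.8% were higher, with a median difference of -0.51 points. Among borders below 20%, 58 of 101 in Hox were higher in HOM than in WT (median difference 0.70 points), against 39.2% of all such borders (-0.26 points). HET against WT also gave 68 higher and 57 lower, with a median difference of 0.12 points. Borders of neighbouring islands overlap in part and are not independent.

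Few single borders were called. In HOM against WT 3 were higher and 1 lower (0.341 and 1.05% of all borders), and in HET against WT 1 was higher and 1 lower (0.402 and 0.433%). HOM against HET gave 3 higher and 1 lower (0.267 and 1.11%). By Hoxd4 (chr2:74727643-74728142) the level was 15.8% (WT), 41.1% (HET) and 39.4% (HOM), both mutant libraries lying above WT. Beside Hoxd9 (chr2:74697231-74697730) it was 0% in WT over 102 CpG reads, which come to 14.6 after division by the CpGs per read and allow a level of up to 20.6%, and 10.3% in HET and 14.4% in HOM. In the gap between Hoxd3 and Hoxd1 (chr2:74750065-74750564) it was 12.6, 15.7 and 23.3%. All 3 borders called higher in HOM lie in Hoxd, where no island was called. The lower one, near the CpG-richer end of Hoxa4 (chr6:52192227-52192726), stood at 34.0, 26.2 and 19.7%. A border by Hoxc6 (chr15:103010980-103011479) was called lower in HET than in WT, at 20.9, 8.17 and 15.6%. The 4 borders called between HOM and HET were further ones. By Hoxa10 (chr6:52232895-52233394) the level was 9.33, 6.69 and 19.5%, by Hoxa6 (chr6:52208948-52209447) 31.8, 18.1 and 47.7%, and within Hoxb3 (chr11:96314990-96315489) 24.0, 15.5 and 29.1%. HET was the lowest of the libraries in these 3. Within Hoxc4 (chr15:103027815-103028314) it was 29.0, 30.7 and 15.1%, with HOM the lowest. The read-based intervals of the borders called against WT held 0, for example -8.40 to 48.1 points for HOM minus WT by Hoxd4.

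Over whole genes the differences were smaller. Of the 38 spans, 1 was called lower in HOM than in WT and none higher (2.99 and 0.174% of all spans). That was Hoxa4, at 57.7% (WT), 50.2% (HET) and 42.7% (HOM) (adjusted p = 3.21e-15, Fisher's exact test, read-based interval -28.2 to -0.92 points). The spans that rank next were Hoxa6 (-9.56 points) and Hoxb1 (-6.69), and on the other side Hoxa7 (4.85), Hoxd4 (4.83) and Hoxb3 (3.37), none of them called. None was called between HET and WT (0.363% of all spans higher, 0.642% lower). Between HOM and HET, Hoxa2 was called lower in HOM and none was higher (2.13 and 0.164%). Hoxa2 stood at 52.1% in HET and 39.2% in HOM, and it was the only Hox call of any kind that was also made with divided counts (-12.8 points, read-based interval -21.0 to -4.47). With divided counts 1.53% of all spans were called in HOM against HET and 2.11% in HOM against WT. In HOM 27 of 38 spans were lower than in WT, with a median difference of -1.13 points, while all spans had a median difference of -3.30 points and 15.5% were higher. HET was higher than WT in 19 spans and lower in 19, from -9.05 points at Hoxa6 to 6.18 at Hoxa2. Next came Hoxa4 (-7.51) and Hoxa5 (-3.94) on the lower side and Hoxb4 (5.62) and Hoxb2 (5.41) on the higher one. For HOM minus HET, the spans after Hoxa2 were Hoxb4 (-8.72) and Hoxa4 (-7.48), and the highest were Hoxa7 (2.35), Hoxd4 (2.07) and Hoxc10 (1.96), none of them called. In the spans below 20% the median difference of HOM from WT was -0.82 points over 23 Hox spans and -0.98 over all 583.

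Pooled over the clusters, HOM minus WT was -1.34 points (read-based interval -2.29 to -0.40), HET minus WT 0.32 (-0.60 to 1.24) and HOM minus HET -1.67 (-2.54 to -0.79). HOM was lower than WT in Hoxa by -2.64 points (-4.91 to -0.38) and in Hoxb by -1.92 (-3.57 to -0.27). In Hoxc the difference was -0.14 (-1.62 to 1.34) and in Hoxd -0.75 (-2.69 to 1.17), within the counting error. HET minus WT was -1.14 in Hoxa, 1.58 in Hoxb, 0.17 in Hoxc and -0.07 in Hoxd, and each read-based interval held 0. As a ratio, HOM stood at 0.945 of WT over the clusters and at 0.958 over the open sea. By cluster the ratio ran from 0.914 (Hoxa) to 0.990 (Hoxc). Inside islands the clusters stood at 7.38% (WT) and 7.59% (HOM), and all autosomal islands at 5.44 and 4.91%. Whether the lower level of HOM in the clusters and in the open sea has the same source was not tested. Scaled to equal open sea, HOM minus WT over the clusters was -0.33 points. Hoxc lies 4.08 megabases from the mutated base of Kmt2d on chromosome 15, and no CpG in it read at most 10% methylated in 1 library and at least 70% in another. The clusters held 1 such CpG in all, in Hoxa.

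The clusters also hold microRNA genes of the miR-10 and miR-196 families, which are known to target Hox messages. The mature 5p strands in RefSeq (GRCm38.p6) are shown with the seed, bases 2 to 8, in capitals, because the seed defines the family.
miR-10a-5p: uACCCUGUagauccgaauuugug
miR-10b-5p: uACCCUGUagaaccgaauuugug
miR-196a-5p: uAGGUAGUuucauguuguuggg
miR-196b-5p: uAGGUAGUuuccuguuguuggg
The first pair shares 1 seed and the second pair another. Both miR-10 genes lay in methylated DNA, whereas the miR-196 genes differed from each other. Within 500 bases of the hairpin, Mir10a by Hoxb4 stood at 78.9% (WT), 82.6% (HET) and 82.4% (HOM), and Mir10b by Hoxd4 at 67.5, 69.0 and 75.5%. Mir196b, between Hoxa9 and Hoxa10, stood at 1.48, 2.40 and 1.88%. The copies that encode miR-196a-5p stood at 62.2, 55.4 and 57.9% (Mir196a-1 in Hoxb) and at 13, 9.34 and 9.90% (Mir196a-2 in Hoxc). Identical mature miR-196a-5p is thus encoded by a copy in methylated DNA and a copy in lowly methylated DNA. Which of them was expressed was not measured. Mir615, in the Hoxc5 region, stood at 5.12, 3.86 and 7.14%. The windows held 166 to 852 CpG reads, and no test was run on them.

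Genes that act with Hox proteins or on the clusters were measured at their start windows. The 9 Hox partner genes, the TALE homeodomain proteins of the Pbx, Meis and Pknox families that bind DNA together with Hox proteins, had medians of 1.47% (WT), 1.72% (HET) and 2.01% (HOM), and none was called. The 7 Polycomb genes had medians of 3.43, 4.72 and 3.82%, and none was called. Ezh2, the H3K27 methyltransferase, stood at 0, 0.268 and 0%, where 0 allows up to 8.70% in WT and 9.47% in HOM on divided counts. The 6 autosomal activators of the clusters, among them Kmt2a and Men1, had medians of 4.11, 3.42 and 2.61%, and none was called. Kmt2d itself stood at 0.334% (WT), 0.0934% (HET) and 0.416% (HOM). Of 4 related homeobox genes, the Evx genes at cluster ends and the Cdx regulators of Hox genes, 1 was called higher in both mutant libraries. That was Cdx1, at 34.2% (WT), 47.4% (HET) and 50.3% (HOM), while Evx1, Evx2 and Cdx2 lay between 5.07 and 10.5% in every library. Of all start windows 1.03% were called higher in HOM and 1.27% in HET, and both comparisons share the WT library. At mean levels of 40 to 60%, where Cdx1 lies, 6.65% of all windows were called higher in HOM and 6.65% in HET. No read-based interval is given for Cdx1.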

How the data were processed

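Splenic B cells of 3 genotypes (WT, HET and HOM for Kmt2d Ile5482Asn) were measured by whole-genome bisulfite sequencing, with 200 ng of DNA sheared to 800 bp and paired reads of 150 bases, per the labels' protocols. Each CpG has a count of methylated and a count of covering reads in the deposited table, which the authors left raw, per the file headers. Per the submitters' processing notes the build is mm10, and the tools listed are Picard (1.91 and 2.3.0), Bismark, Bowtie2, MethylDackel, BWA 0.7.13 and Trim Galore 0.2.8. The sources used here do not give which of them made these columns, nor how duplicates or overlapping mates were handled. The columns name the genotype and not the sample, so each pair of columns was used as 1 library.

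A level is the sum of methylated reads of a region divided by the sum of its covering reads. Gene positions, promoters and microRNAs came from RefSeq tables of GRCm38.p6. Of 38 members, 22 had a RefSeq start; the other 16 were measured at the CpG-richer gene end. Exons, introns and UTRs were not assigned. Islands were found from CpG positions alone (17 per CpG, -1 per other base, over 200 bp, at least 6 CpGs per 100 bp). Fisher's exact test, two-sided, was run on each region that held 3 CpGs or more and 30 or more CpG reads per library, with Benjamini-Hochberg adjustment over all autosomal regions of the kind. Python 3.11.15, numpy 2.4.6, pandas 2.3.3 and scipy 1.17.1 were used, and the calling was tested on simulated data. The simulation drew all CpG reads of a start window independently, with no genome-wide shift between libraries. It therefore does not give the rate of false calls where CpGs share a read, as they do here. Intervals and limits cover counting error only, at 95%; a count of 0 was given the limit of 3 divided counts. Alternatives changed the size of difference, the read minimum, region widths, the CpGs used and the scale, and divided counts by the CpGs per read. Named with full values were, by rule, the 3 highest and 3 lowest spans of each cluster, all called spans, islands, starts and borders, and the 5 tiles and 3 spans that differ most in each direction; of the gene lists, counts are given with examples. The members and lists were chosen with earlier results of these data known. One listed B cell marker is not reported here.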

Additional observations from a re-analysis of the deposited data

How the results depend on the processing

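Both the pooled differences and the counts of calls depended on the settings. Each library has 1 set of counts, so leaving out a replicate was not possible. No paired analysis was possible because the columns carry no replicate number. Depth limits single regions: an island of the set rests on few molecules, and a difference that misses the threshold is not shown to be absent. The cause of the changes listed here was not tested, except that divided counts hold fewer observations by construction.

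For the level of the clusters, counting each CpG once gave -0.74 points for HOM minus WT, -0.17 for HET minus WT (a reversed sign) and -0.57 for HOM minus HET. Scaling to the WT open sea gave -0.33 for HOM minus WT and -0.85 for HOM minus HET. Outside islands, HOM minus WT was -1.75 and HET minus WT -0.17, again reversed. The other settings moved these differences by less than the counting interval.

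Counts of calls are given for HOM minus WT, HET minus WT and HOM minus HET in that order, where they moved by over 1.5 times. A limit of 20 points left 0 and 0 spans (HOM minus WT and HOM minus HET), 4 islands (HOM minus WT), 5, 3 and 1 tiles, 0, 0 and 1 starts, and 1, 1 and 1 borders. A limit of 5 points gave 6, 5 and 6 spans, and for HOM minus HET 8 islands, 24 tiles and 7 starts. Divided counts left 0 in all comparisons of islands, tiles, starts and borders and 0 spans for HOM minus WT. Spans without flanks gave 2 for HOM minus WT and 2 for HOM minus HET. Islands over 500 bp gave 3, 1 and 2. Borders of 1000 bp gave 8 for HOM minus WT. Tiles of 2 kb or shifted by 500 bp, a minimum of 60 CpG reads, and leaving out variant-like CpGs kept each count within 1.5 times.

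Of 81 single calls, 80 were lost with divided counts, 12 with scaling and 0 without variant-like CpGs, and none changed sign.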

Other observations

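The methylated part of Hoxa is of interest for its islands. Of the 6 Hox islands in Hoxa at or above 20%, 4 stood at 66.1% or more in every library and were called in no comparison. The one by Hoxa6 (chr6:52206447-52206654) stood at 95.1% (WT), 93.9% (HET) and 95.6% (HOM). The one at Hoxa5 (chr6:52203746-52204843), which holds 106 CpGs, stood at 76.9, 66.1 and 70.8%. The other two lie within the long Hoxa3 span, at 92.3, 91.7 and 94.7% (chr6:52172475-52172811) and at 85.6, 88.9 and 88.2% (chr6:52177164-52177666). By contrast the highest island of Hoxd stood at 12.4% in WT.

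In Hoxb, an island by Hoxb7 (chr11:96289385-96289609) stood at 34.9, 36.2 and 38.4% and one by Hoxb1 (chr11:96366802-96367021) at 22.3, 15.8 and 16.5%, and neither was called. In Hoxc, the 7 gaps between genes that hold at least 3 CpGs lay between 9.18% (Hoxc11 to Hoxc10) and 19.5% (Hoxc6 to Hoxc5) in WT.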
